A study of Rhinolophus ferrumequinum with 8 samples.

Results

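Whole spleens of wild female greater horseshoe bats in the winter active state were set against spleens of bats in torpor. Torpor is the cold, low-metabolism phase of hibernation, and hibernating mammals leave it through arousals in which they rewarm on their own heat. The spleen filters blood, recycles red cells and holds B cells, T cells and macrophages, and circulating lymphocyte numbers are known to drop in torpid mammals and to recover on rewarming. The comparison asks how the spleen of bats that were active in winter, 26 h into capture, differed from that of torpid bats.

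The comparison took 4 of the 8 libraries of the series, named below by state and replicate number. Winter active bats were taken in November and captured for 26 h, and torpid bats were taken in November with no capture time given, with 2 biological replicates in each state. The other 4 libraries, 2 of arousal (November, 2 h of capture) and 2 of the summer active state (July), entered the fit to share its estimate of the spread and are given as context. No genotype, age or treatment is given for any group. As the labels tie the winter active state to a capture time, activity and captivity cannot be told apart. Genes were members when their mean over the 8 libraries was at least 1, which kept 13542 of 19652 genes. Levels are in rescaled TPM, a length-corrected transcript abundance (TPM) that was deposited with unequal column totals. Differences are winter active minus torpor in log2(value + 1) units, with their standard error (SE), and are too small for genes of low level because of the added 1. Adjusted p-values are limma's over all 13542 genes, with 0.05 as the threshold.

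Markers of spleen cells were present in all 4 libraries compared. The complement gene C1QA, made by macrophages, stood at 4749 and 3921 in winter active spleens and at 7835 and 7117 in torpor spleens. CD79A, a chain of the B-cell receptor, stood at 448 and 338 in winter active spleens and 296 and 364 in torpor spleens. SPIC, the transcription factor of iron-recycling red pulp macrophages, stood at 484 and 626 in winter active spleens and 637 and 350 in torpor spleens. The T-cell gene CD3E was not analysed here. The 2 winter active libraries lay 0.569 apart (root mean square log2 distance over tested genes) and the 2 torpor libraries 0.607 apart. Distances between states were 0.602 to 0.853, and winter active 1 lay as near to torpor 2 (0.602) as the torpor libraries lay to each other. Sequencing depth cannot be worked out from the deposited values.

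The libraries compared also differed in transcripts of other tissues and of neutrophils. Summed over 14 pancreatic markers, winter active 1 and 2 held 39.2 and 176 and torpor 1 and 2 held 2035 and 450. The sum of 22 hepatocyte markers was 97.0 and 61.3 in winter active spleens and 1226 and 130 in torpor spleens. The sum of 16 neutrophil markers was 1889 and 1593 in winter active spleens and 14749 and 1973 in torpor spleens. For 14 stomach and squamous epithelium markers it was 170 and 2393 in winter active spleens and 508 and 929 in torpor spleens. These sums include broader epithelial genes, such as KRT19 at 39.3 and 151 in winter active spleens and 153 and 335 in torpor spleens. CDH1 stood at 96.7 and 98.6 in winter active spleens and 81.0 and 100 in torpor spleens. The stomach gene GKN1 stood at 0 and 666 in winter active spleens and 0 and 23.1 in torpor spleens. TFF2 stood at 0.535 and 126 in winter active spleens and 72.2 and 8.96 in torpor spleens. Torpor 1 was thus highest in pancreatic, hepatocyte and neutrophil transcripts, and winter active 2 in stomach transcripts. The part of these transcripts in the results was not tested, and values without single libraries are given beside many of the lists.

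**Figure D1:**
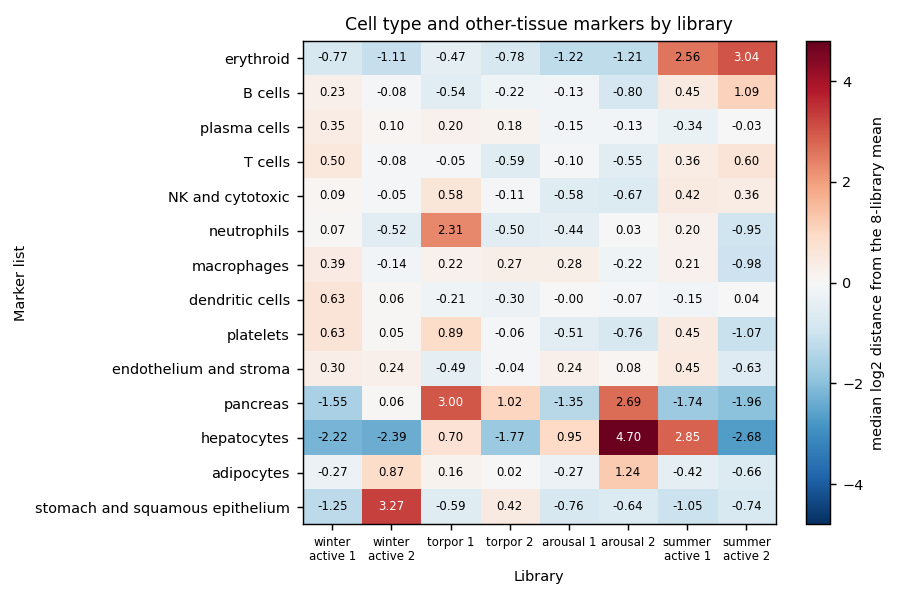
Median log2 distance of each marker list (rows) from its 8-library mean, in every library (columns). Neutrophil markers were at 2.31 in torpor 1 against -0.50 in torpor 2, and stomach and squamous epithelium markers at 3.27 in winter active 2 against -1.25 in winter active 1.

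No gene passed the threshold between winter active and torpor spleens in either direction (0% of 13542 genes, limma), and the smallest adjusted p was 0.220. At an unadjusted p under 0.05, 1231 genes lay higher (9.09%) and 556 lay lower (4.11%) in winter active spleens. Both winter active libraries lay above both torpor libraries in 4002 genes (29.6%) and below both in 2889 genes (21.3%), and the log2 difference was above 0 in 56.7% of genes. With a log2 difference of at least 1 as well, 586 genes were higher (4.33%) and 190 lower (1.4%). The split at unadjusted p depended on the scaling. It was 884 higher and 967 lower after median-of-ratios rescaling, 730 and 690 after quantile normalization, and 1984 and 168 with columns set to totals of 1000000. The median difference over all genes, 0.079 as deposited, became -0.024, -0.012 and 0.24 under these scalings. Without torpor 1 the split was 798 and 211, without winter active 1 it was 933 and 329, and without winter active 2 it was 620 and 238. Direction also followed expression level. Among 3498 genes with a mean under 5 in the 4 libraries the median difference was 0.25, and 69.4% lay above 0. Among 1292 genes with a mean of at least 100 it was -0.20, and 26.3% lay above 0. Since no gene passed, the genes and groups below are described by their values and not called changed.

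**Figure D2:**
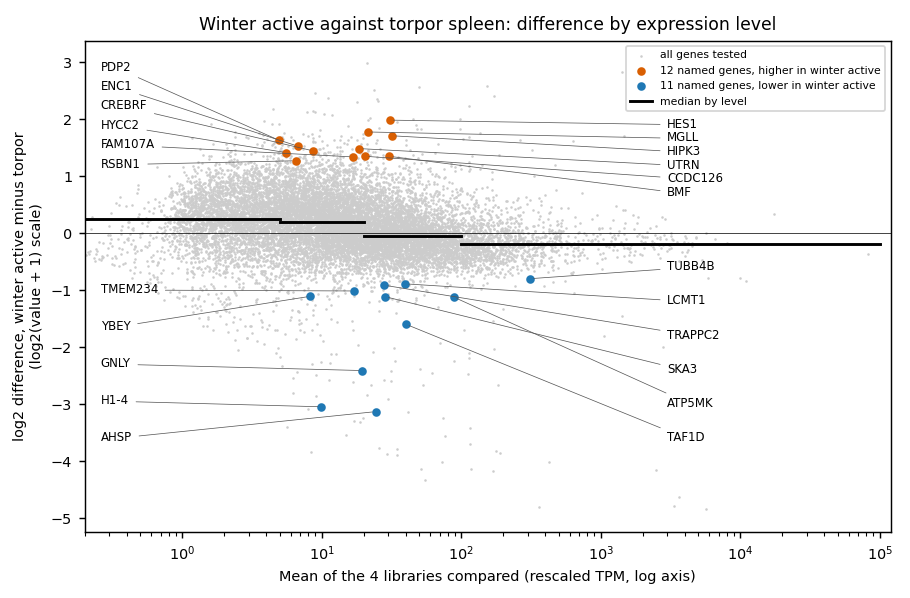
Log2 difference, winter active minus torpor, of every tested gene against its mean over the 4 libraries compared in rescaled TPM (log axis), with 23 genes named by rule coloured. Black lines give the median in each range of levels, which lies at 0.25 for means under 5 and at -0.20 for means of at least 100.

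Among genes higher in winter active spleens, the smallest p belonged to HIPK3, a nuclear serine/threonine kinase (NCBI gene 117029966). HIPK3 stood at 40.7 and 58.9 in winter active spleens against 13.3 and 15.4 in torpor spleens (log2 difference 1.71, SE 0.23, adjusted p = 0.237). Its levels in arousal, 59.6 and 67.2, were at or above those of the winter active state, and its summer levels of 28.2 and 27.0 lay between. HES1, a transcriptional repressor downstream of Notch, stood at 58.4 and 40.9 in winter active spleens against 14.8 and 9.14 in torpor spleens (1.98, SE 0.31, adjusted p = 0.271). JAG1, a Notch ligand chosen after its values were seen, stood at 17.6 and 18.8 in winter active spleens against 6.15 and 6.62 in torpor spleens (1.38). Neither gene had overlapping libraries between the 2 states, and in both the arousal libraries also lay above torpor, with HES1 at 36.7 and 40.1 and JAG1 at 22.5 and 18.96. MGLL, the lipase that splits monoglycerides, stood at 33.5 and 33.5 in winter active spleens against 7.12 and 11.6 in torpor spleens (1.77, SE 0.29). PDP2, the phosphatase that switches pyruvate dehydrogenase on, stood at 7.03 and 8.92 in winter active spleens against 2.36 and 1.49 in torpor spleens (1.63, SE 0.27). The summer levels of both metabolic genes were far above those of torpor, at 43.4 and 30.4 for MGLL and 5.69 and 6.24 for PDP2. BMF, which promotes apoptosis through its BH3 domain, stood at 47.5 and 40.9 in winter active spleens against 15.1 and 18.5 in torpor spleens (1.35, SE 0.21). UTRN, the dystrophin relative utrophin, stood at 24.3 and 31.4 in winter active spleens against 8.42 and 10.2 in torpor spleens (1.48, SE 0.21). ENC1, an actin-binding kelch protein, stood at 10.4 and 10.6 in winter active spleens against 3.28 and 2.73 in torpor spleens (1.52, SE 0.22). For UTRN and ENC1 both winter active libraries lay above both libraries of every other state.

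The other 5 genes on this side were less abundant or less well characterised. CREBRF, a regulator of the CREB3 transcription factor, stood at 11.1 and 15.4 in winter active spleens against 4.6 and 3.79 in torpor spleens (1.44, SE 0.24). HYCC2, of the hyccin family, stood at 7.80 and 9.30 in winter active spleens against 2.55 and 2.61 in torpor spleens (1.41, SE 0.23). HYCC2 was highest in arousal, at 10.5 and 11.5, and as low in summer, at 2.47 and 2.08, as in torpor. CCDC126, RSBN1 and FAM107A differed by 1.35, 1.27 and 1.34. Adjusted p was 0.271 for the 11 genes of the rule other than HIPK3.

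On the lower side, the linker histone gene H1-4 (NCBI gene 117015308) stood at 0.846 and 1.79 in winter active spleens against 24.2 and 13 in torpor spleens (log2 difference -3.05, SE 0.37, adjusted p = 0.220). Its arousal libraries, at 7.87 and 6.58, lay between the 2 states, and its summer libraries, at 1.86 and 1.08, lay within the winter active range or near it. TAF1D, a subunit of the factor that recruits RNA polymerase I to ribosomal DNA, stood at 19.4 and 19.2 in winter active spleens against 62.5 and 58.7 in torpor spleens (-1.6, SE 0.18, adjusted p = 0.220). Torpor was the highest state for TAF1D, with arousal at 28.1 and 25.5 and summer at 27.2 and 32.5. GNLY, the cytotoxic granule protein granulysin, stood at 6.53 and 4.45 in winter active spleens against 38.9 and 28.1 in torpor spleens (-2.41, SE 0.31, adjusted p = 0.237). Both torpor libraries exceeded all 6 others for H1-4, TAF1D and GNLY. The gene with the smallest p of all tested, LOC117024590, has no name in the table and was chosen after its values were seen. It stood at 0.168 and 0.276 in winter active spleens against 14.6 and 18.6 in torpor spleens (-3.84, SE 0.41, adjusted p = 0.220).

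The other genes on the lower side had varied roles. ATP5MK, a small subunit of mitochondrial ATP synthase, stood at 51.8 and 58.4 in winter active spleens against 119 and 122 in torpor spleens (-1.12, SE 0.17). SKA3, which ties kinetochores to microtubules, stood at 18.9 and 16.3 in winter active spleens against 42.0 and 36.6 in torpor spleens (-1.12, SE 0.19). The summer levels of both, 124 and 116 for ATP5MK and 53.6 and 57.7 for SKA3, were near or above those of torpor. TUBB4B, a beta-tubulin, stood at 225 and 228 in winter active spleens against 408 and 383 in torpor spleens (-0.80, SE 0.16). The winter active libraries were the lowest of all 8 for TUBB4B and ATP5MK. AHSP, the alpha-globin chaperone, stood at 7.21 and 1.56 in winter active spleens against 65.4 and 23.4 in torpor spleens (-3.13, SE 0.62). TRAPPC2, a vesicle trafficking gene, LCMT1, which methylates protein phosphatase 2A, YBEY, a mitochondrial RNase, and TMEM234 differed by -0.92, -0.89, -1.11 and -1.02. These 8 genes had an adjusted p of 0.271.

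**Figure D3:**
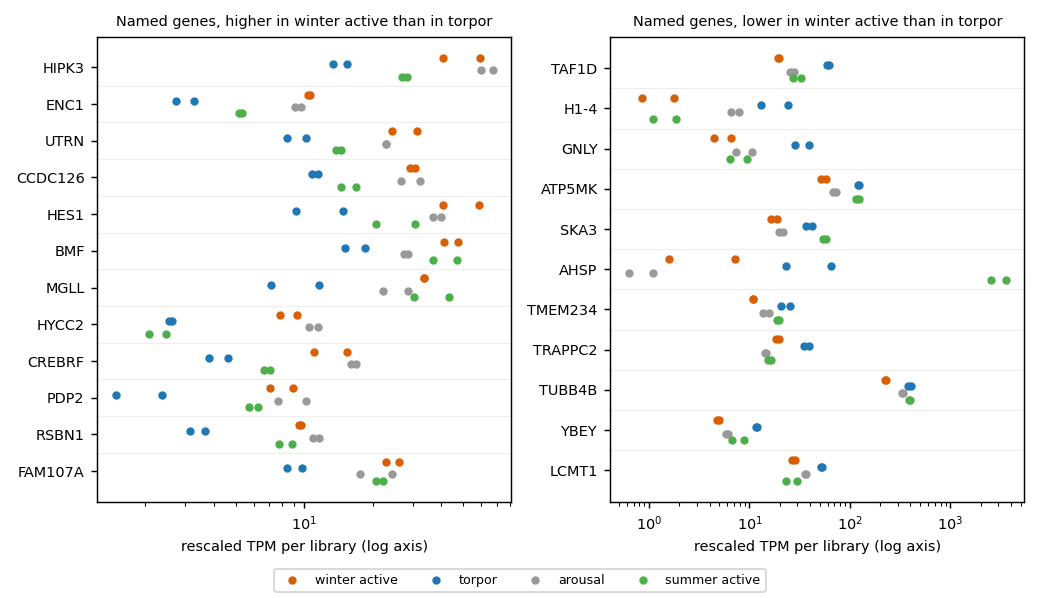
Rescaled TPM per library (log axis) of the 12 genes on the higher side (left) and 11 on the lower side (right) by smallest p, 1 point per library. In every gene the 2 winter active points lie apart from the 2 torpor points, as the rule for naming required. H1-4 is at 0.846 and 1.79 in winter active spleens and 24.2 and 13 in torpor spleens.

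Whether the level after 26 h of capture differed from that after 2 h was tested in the same fit. None of the 23 genes named by rule and shown passed between winter active and arousal (limma adjusted p of at least 0.825), nor did any of the 13542 genes (0%, smallest adjusted p = 0.227), while 738 had an unadjusted p under 0.05 (5.45%). The differences of the 23 genes, winter active minus arousal, ran from -1.85 for H1-4 to 1.31 for AHSP. No difference from torpor is therefore called particular to the later time.

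Gene groups are described below by how many tested members had an unadjusted p under 0.05, how many had libraries that did not overlap between the states, and the median log2 difference, to be read against 9.09% and 4.11%, 29.6% and 21.3%, 56.7% above 0, and 0.079 over all genes. In bulk tissue, fewer cells of a type and less RNA per cell cannot be told apart. Some lists share members, so their counts are not separate results. The glucocorticoid-induced list shares DUSP1 with immediate early genes, NFKBIA with inflammatory genes, and DDIT4 and CEBPB with the integrated stress response. It also shares CD163 with macrophage and iron genes. Dendritic cell genes share CCR7 with T cells and IRF4 with plasma cells.

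**Figure D4:**
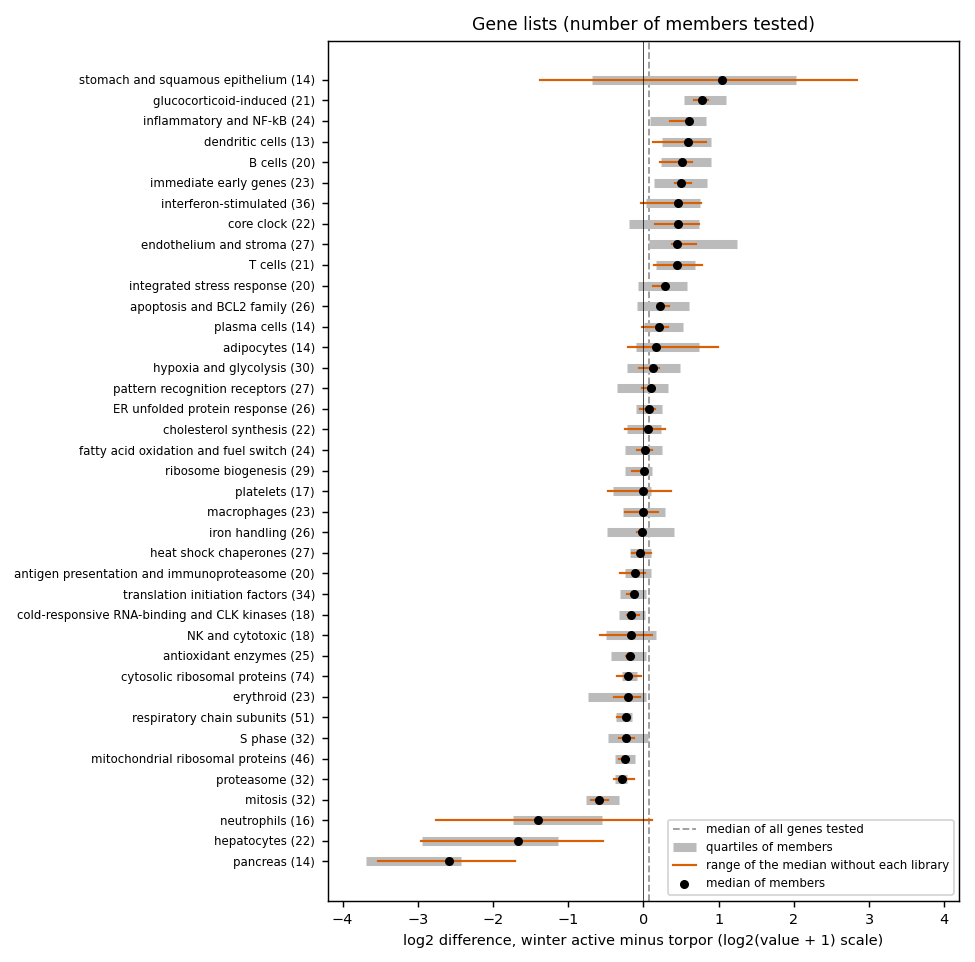
Median (black point) and quartiles (grey bar) of the log2 difference, winter active minus torpor, of the members of 39 gene lists, with the range of the median over fits that leave out each of the 8 libraries (orange line) and the median of all genes (dashed). The glucocorticoid-induced list lies at 0.78 and the mitosis list at -0.59 with narrow ranges, while neutrophil and stomach lists cross 0 when 1 library is left out.

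Genes that glucocorticoid hormones induce, which mammals release under stress and on a daily rhythm, lay higher as a group. Of 21 members tested, 19 were above 0, 16 did not overlap in the higher and 1 in the lower direction, and 11 had an unadjusted p under 0.05, with none on the lower side at that p (median 0.78). KLF9, a transcription factor and direct target of the glucocorticoid receptor, stood at 20.1 and 19.3 in winter active spleens against 4.78 and 3.24 in torpor spleens (2.06, SE 0.46, adjusted p = 0.271). ZBTB16, another direct target, stood at 17.2 and 9.63 in winter active spleens against 2.12 and 2.24 in torpor spleens (2.13, SE 0.48, adjusted p = 0.271). KLF15 stood at 18.0 and 20.5 in winter active spleens against 3.52 and 2.36 in torpor spleens (2.38). FKBP5, the receptor's feedback co-chaperone, stood at 170 and 153 in winter active spleens against 91.4 and 96.0 in torpor spleens (0.78, SE 0.26, adjusted p = 0.320). FAM107A (1.34), PER1 (1.07), CEBPD (1.13), DUSP1 (1.10) and DDIT4 (1.00) lay on the same side. The arousal libraries were split for several of these, with KLF15 at 4.46 and 28.9 and KLF9 at 9.67 and 28.5. TSC22D3, also known as GILZ, overlapped between the states, at 306 and 235 in winter active spleens and 275 and 123 in torpor spleens (0.54, adjusted p = 0.546). Its sign turned to -0.036 without torpor 2. The 2 members below 0 were ANGPTL4, at 52.5 and 46.4 in winter active spleens against 91.5 and 61.6 in torpor spleens (-0.60), and LCN2, at 10.8 and 12.1 in winter active spleens and 69.3 and 10.5 in torpor spleens (-1.19). LCN2, lipocalin 2, is also a neutrophil granule gene and was high in torpor 1 alone. The list median stayed between 0.67 and 0.85 without any 1 library, and the count at unadjusted p was 6 without winter active 1 and 6 without torpor 2.

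**Figure D5:**
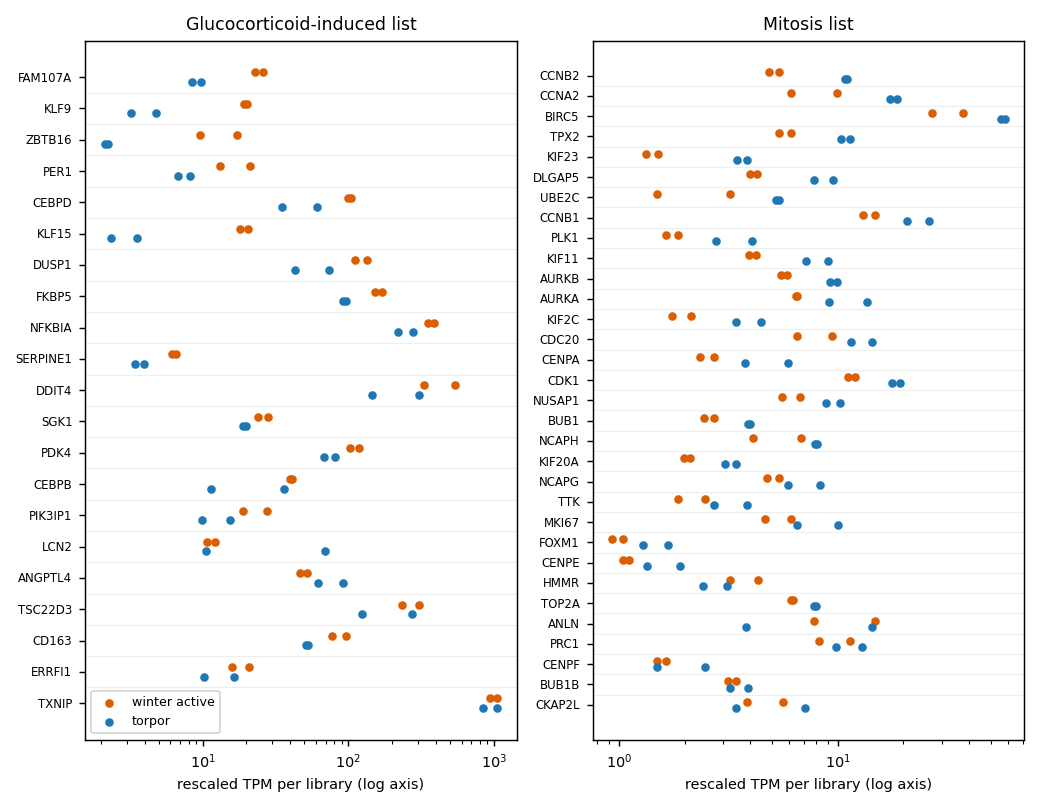
Rescaled TPM per library (log axis) of every tested member of the glucocorticoid-induced list (left, 21 genes) and the mitosis list (right, 32 genes), ordered by p. In 16 glucocorticoid-induced genes both winter active points lie to the right of both torpor points, and in 26 mitosis genes both lie to the left.

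The clock, which times daily transcription through feedback loops, was mixed. Of 22 clock genes tested 15 were above 0, 11 did not overlap in the higher and 2 in the lower direction, and 4 had an unadjusted p under 0.05, all higher (median 0.45, but 0.15 without torpor 2 and 0.74 without torpor 1). PER1, a clock repressor that is also glucocorticoid-induced, stood at 21.2 and 13.1 in winter active spleens against 8.15 and 6.78 in torpor spleens (SE 0.26, adjusted p = 0.274). NR1D2, a nuclear receptor of the clock, stood at 27.3 and 31.4 in winter active spleens against 18.9 and 15.2 in torpor spleens (0.75, SE 0.23). Its relative NR1D1 did not overlap in the lower direction, at 22.6 and 20.5 in winter active spleens and 23.0 and 31.0 in torpor spleens, with winter active 1 close to torpor 1 (-0.30). The output factor DBP stood at 15.6 and 15.7 in winter active spleens and 29.0 and 14.3 in torpor spleens (-0.36), with the sign turned to 0.12 without torpor 1. The hour of sampling is not in the labels, so its part in the clock genes was not tested.

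Immediate early genes, which respond to growth factor and stress signals within minutes to hours, mostly lay higher. Of 23 tested, 19 were above 0, 14 did not overlap in the higher and 1 in the lower direction, and 7 had an unadjusted p under 0.05 (median 0.50). The antiproliferative gene BTG2 stood at 35.3 and 24.8 in winter active spleens against 7.29 and 3.69 in torpor spleens (2.30, SE 0.41, adjusted p = 0.271). MYC, a driver of growth and metabolism, stood at 81.2 and 70.5 in winter active spleens against 41.8 and 41.2 in torpor spleens (0.85, SE 0.17, adjusted p = 0.271). Both libraries of every other state lay below the winter active ones for MYC, with arousal at 55.1 and 58.6. For BTG2 the arousal libraries, at 38.8 and 21.8, lay to either side of the winter active ones. EGR1 stood at 11.4 and 24.9 in winter active spleens and at 7.41 and 10.4 in torpor spleens (0.87). FOS differed in the other direction, at 2.15 and 4.21 in winter active spleens against 5.20 and 4.99 in torpor spleens (-0.59, adjusted p = 0.480). The count at unadjusted p was 4 without winter active 1, 3 without winter active 2 and 4 without torpor 2.

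Inflammatory and NF-kB genes, which encode cytokines and the feedback inhibitors that restrain them, lay higher in 19 of 24 members tested (median 0.61, but 0.36 without torpor 2). Of them 13 did not overlap, all higher, and 7 had an unadjusted p under 0.05. The cytokine gene TNF stood at 7.56 and 9.75 in winter active spleens against 4.35 and 1.09 in torpor spleens (1.52, SE 0.49, adjusted p = 0.314). IL10, an anti-inflammatory cytokine, stood at 9.33 and 15.8 in winter active spleens against 6.89 and 2.72 in torpor spleens (1.28). ZC3H12A, an RNase that degrades cytokine mRNAs, stood at 22.4 and 17 in winter active spleens against 10.2 and 5.84 in torpor spleens (1.23, SE 0.30). NFKBIA, the inhibitor of NF-kB, stood at 354 and 389 in winter active spleens against 220 and 280 in torpor spleens (0.58, SE 0.20). TNF was higher in both winter active libraries than in all 6 other libraries. The count at unadjusted p was 3 without winter active 1, 2 without winter active 2 and 3 without torpor 2.

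Interferon-stimulated genes, effectors of antiviral defence, depended on winter active 1. Of 36 tested, 27 were above 0, 14 did not overlap in the higher and 1 in the lower direction, and 7 had an unadjusted p under 0.05 (median 0.46). The median was -0.030 without winter active 1 and 0.76 without winter active 2, where 3 and 14 members had an unadjusted p under 0.05 on the higher side. Without torpor 1 that count was 2. IFIT1, which binds viral RNA, stood at 38.1 and 25 in winter active spleens against 15.1 and 6.23 in torpor spleens (1.56, SE 0.40, adjusted p = 0.274). RSAD2, the antiviral enzyme viperin, stood at 9.25 and 1.69 in winter active spleens and 1.12 and 1.48 in torpor spleens, against 29.1 and 56.2 in summer. OAS2 stood at 12.5 and 2.84 in winter active spleens and 1.44 and 3.08 in torpor spleens (1.19), so that winter active 2 lay within the torpor range. Among pattern recognition receptors (27 tested, median 0.095, 2 higher and 2 lower at unadjusted p), the DNA sensor CGAS stood at 8.93 and 5.33 in winter active spleens against 2.65 and 2.54 in torpor spleens (1.14). TLR1, a receptor for bacterial lipopeptides, lay the other way, at 25.7 and 19.9 in winter active spleens against 43.1 and 35.1 in torpor spleens (-0.76). None of 20 antigen presentation genes had an unadjusted p under 0.05 (median -0.12, but -0.31 without winter active 1 and 0.022 without winter active 2).

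Lymphocyte markers lay higher for B and T cells and not for cytotoxic cells. Of 20 B-cell markers 19 were above 0, 12 did not overlap in the higher direction and 4 had an unadjusted p under 0.05 (median 0.51, but 0.22 without torpor 1, and 2 at that p without winter active 1). CXCR5, the receptor that leads B cells into follicles, stood at 51.2 and 32.5 in winter active spleens against 10.8 and 4.65 in torpor spleens (2.35, SE 0.52, adjusted p = 0.271). MS4A1, which encodes CD20, stood at 162 and 175 in winter active spleens against 89.2 and 48.2 in torpor spleens (1.35, SE 0.44). VPREB3 stood at 51.1 and 47.5 in winter active spleens against 23.4 and 23.8 in torpor spleens (1.03, SE 0.20), and at 196 and 188 in summer. The receptor chains CD79A (0.25) and CD79B (0.18) overlapped between the states. Of 21 T-cell markers 18 were above 0, 9 did not overlap in the higher direction and 4 had an unadjusted p under 0.05 (median 0.44). The T-cell median was 0.17 without winter active 1, 0.14 without torpor 2, and 0.77 and 0.75 without winter active 2 and torpor 1, with counts of 1, 1, 7 and 7. The costimulatory receptor gene ICOS stood at 15.7 and 11.6 in winter active spleens against 4.005 and 3.58 in torpor spleens (1.6, SE 0.43), and the survival receptor gene IL7R at 30.9 and 18.5 in winter active spleens against 10.9 and 7.73 in torpor spleens (1.29, SE 0.39). Of 18 NK and cytotoxic markers, 6 were above 0 and only GNLY had an unadjusted p under 0.05 (median -0.17, but 0.11 without torpor 1). NKG7 stood at 16.7 and 14.3 in winter active spleens against 28.1 and 23.3 in torpor spleens (-0.69).

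Dendritic cell genes lay higher in 12 of 13 members, 8 without overlap and 4 at an unadjusted p under 0.05 (median 0.59, but 0.13 without winter active 1, and 2 at that p without winter active 1 or torpor 2). IRF8, a transcription factor of this list, stood at 172 and 135 in winter active spleens against 86.2 and 58.5 in torpor spleens. Its log2 difference was 1.09 (SE 0.24, limma adjusted p = 0.271). The IRF8 arousal libraries, at 160 and 138, lay within the winter active range. TCF4, needed by plasmacytoid dendritic cells and also active in other cells, stood at 27.6 and 33.0 in winter active spleens against 12.3 and 16.5 in torpor spleens (1.03, SE 0.25). XCR1, a chemokine receptor of cross-presenting dendritic cells, stood at 6.28 and 4.33 in winter active spleens against 3.06 and 1.47 in torpor spleens (0.98). BATF3 overlapped, at 176 and 81.8 in winter active spleens and 143 and 88.7 in torpor spleens (0.091). FLT3 (0.25) and FSCN1 (0.22) also overlapped, and IDO1 (-0.28) was the member below 0. Plasma cell genes stood on both sides (14 tested, median 0.20, but -0.013 without winter active 1 and 0.32 without winter active 2). Of them 10 were above 0, 4 did not overlap in the higher and 3 in the lower direction, and 2 were higher at unadjusted p. PRDM1, the factor of antibody-secreting cells, stood at 9.51 and 9.93 in winter active spleens against 5.66 and 4.01 in torpor spleens (0.89). XBP1 (-0.28), SSR4 (-0.48) and SEC11C (-0.42) lay lower without overlap, and JCHAIN differed by -0.009.

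Macrophage markers were divided (23 tested, 11 above 0, median -0.011, 1 with an unadjusted p under 0.05). The lysosomal gene CD68 stood at 135 and 92.5 in winter active spleens against 313 and 255 in torpor spleens (-1.33, SE 0.42, adjusted p = 0.310). The hemoglobin scavenger receptor gene CD163 lay the other way, at 96.0 and 77.7 in winter active spleens against 51.3 and 53.3 in torpor spleens (0.71). Among 26 iron genes none had an unadjusted p under 0.05 (median -0.018). FTH1, the ferritin heavy chain that stores iron, stood at 7886 and 7844 in winter active spleens against 14274 and 13788 in torpor spleens (-0.83, SE 0.38, adjusted p = 0.394). Its summer libraries, at 7763 and 4797, and arousal libraries, at 11806 and 6656, were further apart and entered its SE. HMOX1, which breaks down heme, stood at 1531 and 1183 in winter active spleens and 1579 and 2316 in torpor spleens (-0.51).

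Endothelial and stromal genes lay higher in 21 of 27 members, with 12 not overlapping in the higher and 3 in the lower direction and 7 at an unadjusted p under 0.05 (median 0.45, and 0.70 without torpor 2). EMCN, a sialomucin of venous and capillary endothelium, stood at 8.64 and 6.73 in winter active spleens against 2.51 and 2.00 in torpor spleens (1.41, SE 0.25, adjusted p = 0.271). LYVE1, a hyaluronan receptor, stood at 14.7 and 19.7 in winter active spleens against 5.56 and 5.94 in torpor spleens (1.42, SE 0.32). STAB2, a scavenger receptor of sinus endothelium, stood at 20.4 and 11.1 in winter active spleens against 2.97 and 4.32 in torpor spleens (1.81). The smooth muscle myosin gene MYH11 stood at 44.1 and 66.7 in winter active spleens against 22.9 and 25 in torpor spleens (1.15, SE 0.24). Both winter active libraries were above all 6 others for EMCN. For MYH11 the arousal libraries, at 46.6 and 56.2, lay within the winter active range. Matrix genes of the stroma were divided. COL6A1 (-0.19), COL6A2 (-0.45) and LUM (-0.33) did not overlap in the lower direction. COL3A1 (-0.49), COL1A1 (-0.12) and the endothelial gene PECAM1 (-0.0008) were also below 0, while COL5A1 (0.58), COL1A2 (0.19) and DCN (0.45) were above it. The count at unadjusted p was 4 without torpor 1 and 2 without both torpor 1 and winter active 2. Platelet genes had none at that p (17 tested), and their median of -0.004 was 0.36 without torpor 1, -0.47 without torpor 2 and -0.31 without winter active 1.

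Mitosis genes lay lower in the winter active state than in torpor. Of 32 tested, 30 were below 0, 26 did not overlap in the lower and 1 in the higher direction, and 7 had an unadjusted p under 0.05 (median -0.59, and -0.47 to -0.69 without any 1 library). BIRC5, survivin of the chromosomal passenger complex, stood at 37.5 and 27.1 in winter active spleens against 58.1 and 55.7 in torpor spleens (-0.82, SE 0.29, adjusted p = 0.331). The cyclin genes CCNA2 and CCNB2, which drive entry into mitosis, followed. CCNA2 stood at 9.92 and 6.16 in winter active spleens against 18.6 and 17.4 in torpor spleens (-1.10, SE 0.39), and CCNB2 at 4.85 and 5.40 in winter active spleens against 11 and 10.8 in torpor spleens (-0.96, SE 0.32). In summer the levels were above both states compared, with CCNB2 at 20.7 and 40.7 and BIRC5 at 151 and 265. The arousal libraries, 2 h into capture, also lay below both torpor libraries for CCNB2, BIRC5 and CCNA2. They stood at 26.6 and 24.8 for BIRC5 and at 9.49 and 5.64 for CCNA2, so the lower level was not particular to the winter active state. MKI67 stood at 6.13 and 4.65 in winter active spleens and 6.55 and 10.0 in torpor spleens (-0.52, adjusted p = 0.669). Its arousal libraries, at 10.9 and 3.303, lay to either side of torpor. The count at unadjusted p was 3 without winter active 1, 0 without winter active 2, 0 without torpor 1 and 1 without torpor 2. Of 32 S-phase genes 22 were below 0, 17 did not overlap in the lower and 3 in the higher direction, and 1 was higher and 1 lower at unadjusted p (median -0.23, but -0.12 without torpor 1). RFC2, of the clamp loader, stood at 92.0 and 76.4 in winter active spleens against 125 and 133 in torpor spleens (-0.61), while GINS3, of the replicative helicase, stood at 6.78 and 5.63 in winter active spleens against 3.73 and 2.75 in torpor spleens (0.77).

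Genes of the BCL2 family and of apoptosis had 6 of 26 members higher and 1 lower at an unadjusted p under 0.05 (median 0.22). Besides BMF, PMAIP1, which encodes the BH3-only protein NOXA, stood at 10.4 and 9.85 in winter active spleens against 4.62 and 3.27 in torpor spleens (1.18, SE 0.30, adjusted p = 0.274). TNFRSF10B, a death receptor for TRAIL, stood at 4.30 and 5.73 in winter active spleens against 2.13 and 1.42 in torpor spleens (1.12, SE 0.28). BID, which links death receptors to mitochondria, lay the other way, at 40.7 and 43.1 in winter active spleens against 68.6 and 62.1 in torpor spleens (-0.63). Death-promoting members thus stood on both sides, and the survival gene BCL2 stood at 20.6 and 14.2 in winter active spleens against 11.8 and 10.2 in torpor spleens (0.60).

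The lists of proteasome, respiratory chain and ribosomal protein genes had medians below that of all genes. Genes with a mean of 20 to 100 in the 4 libraries had a median of -0.054, and those of at least 100 a median of -0.20. Proteasome subunits were below 0 in 28 of 32 members, of which 23 did not overlap in the lower direction and 5 had an unadjusted p under 0.05 (median -0.28, but -0.13 without torpor 1). That count of 5 was 1 without torpor 1, 0 without winter active 1, 2 without winter active 2 and 0 with equal column totals. PSMD6, of the proteasome lid, stood at 101 and 120 in winter active spleens against 166 and 176 in torpor spleens (-0.63, SE 0.20, adjusted p = 0.314). The respiratory chain list held genes of complex I (NDUF), complex II (SDH) and ATP synthase (ATP5), and none of complexes III and IV. Its members were below 0 in 45 of 51 cases, and 33 did not overlap in the lower and 2 in the higher direction. At that p 5 were lower (median -0.23, and -0.35 without torpor 2). None of the 51 were at that p without torpor 1, winter active 1 or winter active 2, or with equal column totals. NDUFB4, of complex I, stood at 26.5 and 28.9 in winter active spleens against 48.5 and 41.6 in torpor spleens (-0.68, SE 0.23). Of 46 mitochondrial ribosomal protein genes 26 did not overlap in the lower and 1 in the higher direction, and 4 were lower at that p (median -0.25), but 0 without torpor 1, without winter active 2 or with equal column totals. MRPL2, of the large mitochondrial subunit, stood at 44.8 and 37.9 in winter active spleens against 70.2 and 59.9 in torpor spleens (-0.64). Cytosolic ribosomal protein genes had 28 of 74 members without overlap and 2 at that p, all lower (median -0.20, but -0.35 without winter active 1 and -0.030 without winter active 2). Set against the median of all genes, the cytosolic ribosomal median was -0.28 as deposited and 0.049 after quantile normalization, so its direction turned. The other medians kept their sign against all genes under the 3 other scalings, at -0.11 to -0.38 for the proteasome, -0.068 to -0.32 for the respiratory chain and -0.15 to -0.34 for mitochondrial ribosomal proteins. Translation initiation factors (34 tested, median -0.13) and ribosome biogenesis genes (29 tested, median 0.003) had 1 and 4 members lower at that p. FBL, the rRNA methyltransferase fibrillarin, stood at 100.4 and 76.1 in winter active spleens against 133 and 126 in torpor spleens (-0.56).

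Few cold and protein-folding genes had an unadjusted p under 0.05. The cold-inducible RNA-binding genes CIRBP and RBM3 are known to be raised at low body temperature in mammalian cells. CIRBP stood at 299.9 and 231 in winter active spleens and 385 and 301 in torpor spleens (-0.37, SE 0.22, adjusted p = 0.483). RBM3 stood at 469.5 and 459 in winter active spleens and 498 and 462 in torpor spleens (-0.048), with the sign turned after total rescaling, quantile normalization and without torpor 1. No member of their list of 18 had an unadjusted p under 0.05, and 7 did not overlap in the lower direction (median -0.16, and -0.055 without winter active 2). Heat shock chaperones had 1 of 27 members at that p (median -0.049), DNAJB4 at 31.2 and 38.2 in winter active spleens against 21.2 and 19.4 in torpor spleens (0.74). HSPH1 overlapped at 23.1 and 45.3 in winter active spleens and 40.5 and 26.1 in torpor spleens (-0.006, with the sign turned under 4 alternatives). In the unfolded protein response of the endoplasmic reticulum (26 tested, median 0.078), the stress sensor ERN1 stood at 9.51 and 11 in winter active spleens against 3.92 and 3.87 in torpor spleens (1.2, SE 0.24, adjusted p = 0.271). DNAJB11, a lumenal co-chaperone, lay the other way (-0.47). In the integrated stress response (20 tested, median 0.29, 2 higher at that p), DDIT3, which encodes CHOP, stood at 24.8 and 23.4 in winter active spleens against 17 and 6.45 in torpor spleens (1.12).

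Metabolic lists had members on both sides. Hypoxia and glycolysis genes (30 tested, median 0.12) held EPAS1, the HIF-2 alpha gene, at 208 and 182 in winter active spleens against 61.7 and 115 in torpor spleens (1.2, SE 0.35, adjusted p = 0.293). HIF1A overlapped, at 35.9 and 51.5 in winter active spleens and 39.5 and 34.4 in torpor spleens (0.22). Of 24 fat oxidation and fuel switch genes 1 had an unadjusted p under 0.05 (median 0.024), PDK2, at 52.0 and 58.7 in winter active spleens against 33.6 and 39.3 in torpor spleens (0.59). PDK4, the kinase that shuts pyruvate dehydrogenase in fasting, stood at 103 and 119 in winter active spleens against 81.7 and 67.9 in torpor spleens (0.57, adjusted p = 0.430) and reached 239 and 157 in arousal. Cholesterol synthesis genes (22 tested, median 0.057) stood on both sides, with FDFT1 at 0.73 and FDPS at -0.61. Their median was 0.28 without winter active 1 and -0.24 without winter active 2. Among antioxidant genes (25 tested, median -0.18), NFE2L2, the master regulator NRF2, stood at 81.0 and 107 in winter active spleens against 47.2 and 25.5 in torpor spleens (1.40, SE 0.32, adjusted p = 0.273). NQO1 stood at 10.6 and 10.6 in winter active spleens against 4.64 and 4.26 in torpor spleens (1.09, SE 0.31). In arousal NFE2L2 stood at 111 and 83.4, and NQO1 at 3.29 and 6.62. Thioredoxin TXN lay the other way, at 111 and 98.8 in winter active spleens against 193 and 144 in torpor spleens (-0.67). HMOX1 (-0.51), SRXN1 (-0.47) and GSR (-0.42) were also below 0 and GCLM (0.48) above it. Of the 25 members, 8 were above 0 and 17 below.

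Red cell genes were low in both winter states next to summer. Of 23 tested, 1 was higher and 2 lower at an unadjusted p under 0.05 (median -0.20, but -0.40 without winter active 1 and -0.043 without torpor 1). ALAS2, the erythroid enzyme of heme synthesis, stood at 23.0 and 0.218 in winter active spleens and 32.6 and 33.7 in torpor spleens (-2.66, SE 1.17, adjusted p = 0.386), against 1185 and 1450 in summer. LOC117030459, which has no name in the table and was chosen after its values were seen, was the most abundant gene of the summer libraries. It stood at 2166 and 54.7 in winter active spleens against 8163 and 12207 in torpor spleens, and at 18.1 and 210 in arousal. TMCC2 lay the other way, at 13.7 and 7.30 in winter active spleens against 5.68 and 3.99 in torpor spleens (0.94).

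Markers of pancreas, liver and stomach, and of neutrophils among the spleen cell lists, had larger median differences than any other list. They varied between libraries of one state. Pancreatic markers were below 0 in 14 of 14 members, 13 without overlap and 6 at an unadjusted p under 0.05 (median -2.59, but -1.70 without torpor 1). Without torpor 1 or without winter active 1, 0 were at that p. CTRC, a pancreatic protease, stood at 4.36 and 17.2 in winter active spleens against 363 and 81.4 in torpor spleens (-4.13, SE 1.27, adjusted p = 0.310). Hepatocyte markers did not overlap in 19 of 22 members, all lower, with 0 at that p (median -1.66, but -0.54 without torpor 1 and -2.95 without torpor 2). APOC3 stood at 6.15 and 0.151 in winter active spleens against 117 and 14.5 in torpor spleens (-3.90, SE 2.20). Neutrophil markers had 0 of 16 at that p (median -1.40, but 0.11 without torpor 1 and -2.76 without torpor 2). S100A8 stood at 346 and 273 in winter active spleens and 3214 and 357 in torpor spleens (-1.80, adjusted p = 0.463). The stomach and squamous epithelium median of 1.05 became -1.38 without winter active 2, and the adipocyte median of 0.16 became 0.99 without winter active 1 and -0.21 without winter active 2. KRT8, an epithelial keratin, stood at 13 and 72.0 in winter active spleens against 139 and 227 in torpor spleens (-2.48, SE 0.76).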

How the data were processed

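Whole-spleen RNA was sequenced on an Illumina protocol (per the labels). Tools named in the submitters' processing notes are kallisto 0.46.2, a pseudoaligner, and sleuth 0.30.0, while the transcriptome, the way transcripts became genes and the rescaling are not stated there. The table deposited by the authors holds 1 rescaled TPM signal per gene and library, with column totals of 745098 to 1331820. It holds no counts, so depth and counting error are unknown. All 19652 identifiers matched the annotation of mRhiFer1_v1.p, which served for names only. Members not in the table are not analysed here, and near-identical gene copies, as of ribosomal proteins and interferon-induced genes, can split reads.

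Genes with an 8-library mean of at least 1 were log2-transformed after adding 1 and tested with limma 3.58.1 under R 4.3.3 (1 mean per state, all 8 libraries, eBayes with a trend, Benjamini-Hochberg adjustment). Residual degrees of freedom were 4, and limma's prior added 3.29. Replicates are labelled biological, so p-values measure the spread between 2 bats a state, pooled over all 4 states. The summer libraries lay 0.843 apart (root mean square log2 distance) and the arousal libraries 0.693, more than either pair compared. A wide spread in those states thus enters the SE given here. In a fit of only the 2 states compared, 1387 genes were higher and 693 lower at an unadjusted p under 0.05 (limma). No sequence tables were used and planned promoter motifs were not searched. The fit was also run on simulated data, and the outcome is not given here. The comparison and the 39 gene lists were chosen with earlier results of these data known. By rule, the text could name the 12 genes with the smallest p in each direction (libraries without overlap, a symbol, and the higher state averaging 5 or more), since none passed the threshold, the 3 members of each list with the smallest p, and 22 fixed genes, less a few that are not reported here. List members named beyond these were chosen after their values were seen. Lists were described and not tested. Alternatives were the pseudocount, filter, scaling, robust eBayes, replicate block, the libraries in the fit and leaving out other-tissue and erythroid genes. Leaving out torpor 1 and winter active 2 together was added after the data were seen.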

Additional observations from a re-analysis of the deposited data

How the results depend on the processing

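Without a filter on low values, limma called 2 genes higher (LOC117027746, LOC117026779) and 2 lower (LOC117018085, LOC117030805) at an adjusted p under 0.05, and every other alternative run called 0. At an unadjusted p under 0.05, higher and lower genes numbered 1984 and 168 with column totals of 1000000, 730 and 690 after quantile normalization, and 884 and 967 after median-of-ratios rescaling. Without any 1 library they ranged over 620 to 1358 higher and 211 to 598 lower, and without torpor 1 and winter active 2 together, chosen after the data were seen, they were 492 and 119. Under a replicate block they were 1534 and 608, with 0 past the adjusted threshold. The replicate numbers are shared by 2 pairs only, and the difference between winter active 1 and 2 correlated with that between torpor 1 and 2 at r = 0.322 over genes, so the block is given as an alternative. Among the named genes, RBM3 turned sign to 0.13 with equal column totals, 0.089 after quantile normalization and 0.0062 without torpor 1. HSPH1 turned to 0.17 and 0.0049 under these scalings and ranged over -0.48 to 0.47 without 1 library, positive without torpor 1 (0.30) or winter active 1. Without 1 library or both of torpor 1 and winter active 2, DBP ranged over -0.85 to 0.12, TSC22D3 over -0.036 to 1.31, the adipocyte gene PLIN1 over -0.10 to 1.96, and the platelet list genes GFI1B over -1.86 to 0.13 and GP5 over -0.84 to 0.075. HIF1A was -0.038 without winter active 2, and RBM3 0.023 and DBP 0.12 without both. The causes were not tested. Depth cannot be read from these values, so its limit on low genes is unknown.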
